A study of Rattus norvegicus with 9 samples.

Results

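The genes described here encode 6 receptors of the neurotrophin and GDNF families, measured in cultured rat sympathetic neurons that had or had not been exposed to BMP-7 (bone morphogenetic protein-7), a growth factor that triggers dendrite formation in these cells. The members are Ngfr, Ntrk2, Ntrk3, Gfra1, Gfra2 and Ret. They were chosen by gene name, and every probe set annotated to one of them alone was taken, which gave 13 of the 8740 probe sets tested and 6 of the 4736 genes named on the array. Each gene had 2 probe sets except Ret, which had 3. A probe set is a group of short oligonucleotides designed against 1 transcript sequence. Because probe sets bind their targets with different strength, levels were compared only between conditions for the same probe set.

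Neurons came from the superior cervical ganglia of embryonic day 21 Holtzman rats and were grown without serum. All 3 conditions shared the same supplemented medium throughout and Ara-C for 48 hr early in culture, an agent that kills dividing non-neuronal cells. BMP24h cultures received 50 ng/ml BMP-7 for 24 hr, BMP6h cultures received 50 ng/ml BMP-7 for 6 hr, and control cultures were kept in medium alone for 24 hr. All were harvested together on day 6 of culture, so the 3 conditions had the same age, and each repeat used cultures of 1 dissection for all 3. Each condition was measured on 3 Affymetrix Rat Genome U34A arrays, 1 for each of 3 independent repeats of the culture, and each RNA sample was pooled from several cultures. Replicate 1 of every condition was hybridized in a first processing batch with 10 µg cRNA, and replicates 2 and 3 in a second batch with 5 µg.

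Neurotrophins are target-derived survival and growth factors. Each binds a receptor tyrosine kinase of the Trk family, whereas p75, the product of Ngfr, binds all of them and signals alone or alters the response of a Trk partner. Ligands of the GDNF family bind a GFRα co-receptor held on the membrane by a lipid anchor, and the complex then activates the kinase Ret. Sympathetic neurons depend on neurotrophin signalling for survival, and GDNF family signalling through Ret guides earlier steps of their development.

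The cultures carried the noradrenergic markers of sympathetic neurons. Tyrosine hydroxylase (Th) averaged 13.41 in BMP24h, 13.42 in BMP6h and 13.49 in control cultures on the log2 scale, and dopamine β-hydroxylase (Dbh) averaged 12.18 in BMP24h, 12.10 in BMP6h and 11.94 in control cultures. The mean of 16 measured neuronal markers lay between 10.73 and 10.95 on BMP24h arrays and between 10.81 and 10.94 on control arrays. By the looser criterion used below, 1 of the 16 was lower in BMP24h than in control cultures and 0 were higher. It was dopa decarboxylase (Ddc), which averaged 10.36 in BMP24h and 10.81 in control cultures (−0.45, adjusted p = 0.632, limma). Because Ngfr is also made by glia, glial markers were followed beside it: the mean of 17 markers of satellite glia and Schwann cells was 7.24 to 7.40 on BMP24h, 7.24 to 7.46 on BMP6h and 7.28 to 7.36 on control arrays. None of the 17 passed either criterion used below. Their separate BMP24h means ran from 3.64 (Fabp7) to 12.07 (Pmp22), and the control means from 3.64 to 12.03. Of 21 fibroblast and matrix markers, 4 were lower and 0 higher in BMP24h than in control cultures by the looser criterion. Of all probe sets, 3.34% met it in either direction. The mean of that list ran from 9.13 to 9.30 in BMP24h and from 9.31 to 9.45 in control cultures. Of 6 endothelial and mural markers, 1 was lower (Kdr, −1.39) and 0 higher, and 0 of 11 macrophage and blood cell markers met it. The part of such cells in the receptor values was not tested. In such pooled samples, more cells of a type and more RNA per cell cannot be told apart. Replicate 2 of BMP6h stood apart from its group, where 9.99% of all probe sets lay over 1 log2 unit away from the average of the remaining pair, against 0.0229% to 4.21% on the other 8 arrays. The receptors' 6 hr differences from control are given with and without it.

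After 24 hr of BMP-7, 2 of the 13 receptor probe sets rose, 1 for Ngfr and 1 for Gfra2, and none fell. The test was limma's moderated test on the deposited log2 values with terms for condition and batch, with Benjamini-Hochberg adjustment across the 8740 probe sets and 0.05 as the threshold. At that threshold 0.217% of all probe sets were called in either direction (19 in all). By the looser criterion of the methods, which asks for p under 0.05 before adjustment and a 1.2-fold change or more, 3 of the 13 passed and all 3 were higher, set against 3.34% of all probe sets in either direction and 1.6% higher. Without regard to any test, 9 of the 13 had a higher mean in BMP24h than in control cultures, as did 51.8% of all probe sets. The median difference was 0.19 over the 13 and 0.01 over all probe sets.

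Ngfr, which encodes p75, had the largest 24 hr difference of the 13 probe sets. On probe set X05137_at the BMP24h arrays read 12.07, 11.92 and 12.12, against 10.06, 9.87 and 10.43 on the control arrays. The lowest BMP24h array was above the highest control array. The fitted difference was 1.91 (SE 0.18, 95% confidence interval 1.50 to 2.32), a fold change of 3.77 (2.84 to 5.00), with an adjusted p of 0.0109. It ranked in place 4 of all probe sets by p. The difference was 2.00 in the first batch, which had 1 array per condition, and 1.87 in the second.

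At 6 hr the same probe set read 10.88, 10.67 and 11.01 on BMP6h arrays, again with no overlap with the control arrays. The difference from control was 0.73 (SE 0.18, 0.32 to 1.14) and passed the looser criterion, which 1.73% of all probe sets did at 6 hr, but not limma's adjusted test (adjusted p = 0.887). Without BMP6h replicate 2 it was 0.83 (adjusted p = 0.957). Non-overlap in the higher direction was found for 3.65% of all probe sets at 6 hr, and a higher mean, without a test, for 44.9% of all and for 9 of the 13. No other receptor probe set passed either criterion at 6 hr, and the adjusted test called 0.0458% of all probe sets (4 in all). BMP24h arrays were higher than BMP6h arrays by 1.18 (SE 0.18, 0.77 to 1.59, adjusted p = 0.228), and by 1.08 without BMP6h replicate 2. On this probe set the Ngfr means therefore stood in the order BMP24h (12.03), BMP6h (10.85), control (10.12). The test over all 3 conditions gave an adjusted p of 0.0255.

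The other Ngfr probe set, U25650_f_at, did not pass. Its suffix marks a set whose probes may match several related sequences. It read 11.21, 11.01 and 11.34 on BMP24h arrays, 10.98, 10.93 and 11.03 on BMP6h arrays, and 10.87, 11.01 and 10.81 on control arrays. All 3 BMP24h arrays were above the control mean, but the groups overlapped. The difference was 0.29 (SE 0.13, −0.01 to 0.59, adjusted p = 1.0) at 24 hr and 0.09 (SE 0.13, −0.22 to 0.39) at 6 hr, or 0.11 without BMP6h replicate 2. The interval at 24 hr lies wholly below the interval of X05137_at. This disagreement was known when the genes were chosen, so the 2 intervals are only described.

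Gfra2, the co-receptor that prefers neurturin, was higher at 24 hr on both of its probe sets. On U97143_at the BMP24h arrays read 9.31, 9.06 and 9.25, against 7.45, 7.37 and 7.62 on control arrays. The gap between the groups exceeded 1 log2 unit. The fitted difference was 1.72 (SE 0.15, 1.37 to 2.08), a fold change of 3.31 (2.59 to 4.22), with an adjusted p of 0.0109 (limma) and place 2 among all probe sets by p. It was 1.86 in the first batch and 1.66 in the second.

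At 6 hr U97143_at read 7.68, 7.59 and 7.99 on BMP6h arrays, which overlapped the control values. The difference from control was 0.27 (SE 0.15, −0.08 to 0.62, adjusted p = 0.887), and 0.36 without BMP6h replicate 2 (adjusted p = 0.999). BMP24h exceeded BMP6h by 1.45 (SE 0.15, 1.10 to 1.81), the smallest p of any probe set in that comparison, although its adjusted p was 0.114 and 0.0% of all probe sets passed (limma called 0, with 259 at an unadjusted p under 0.05). When replicate numbers were fitted as blocks instead of batches, U97143_at passed in that comparison (adjusted p = 0.0317, limma), as did Ngfr X05137_at (0.0472). By the looser criterion 2.92% of all probe sets passed between the 2 times, among them Ngfr X05137_at and both Gfra2 probe sets, all higher in BMP24h. The test over the 3 conditions gave an adjusted p of 0.0255, in a test that called 15 probe sets, or 0.172% of all.

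The second Gfra2 probe set, AF003825_s_at, read 8.20, 8.28 and 8.41 on BMP24h arrays, against 7.43, 7.60 and 7.60 on control arrays. These groups did not overlap either, as was so for 5.61% of all probe sets in the higher direction and for 3 of the 13 receptor probe sets. The difference was 0.75 (SE 0.24, 0.20 to 1.31), which met the looser criterion and not limma's adjusted test (adjusted p = 0.831). Its BMP6h arrays read 7.67, 6.89 and 7.82, with replicate 2 well below the other 2 and below every control array. Leaving that array out left the 24 hr difference at 0.75 and brought its adjusted p to 0.0322, while the 6 hr difference, −0.08 with the array, became 0.23 (adjusted p = 0.999).

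**Figure D1:**
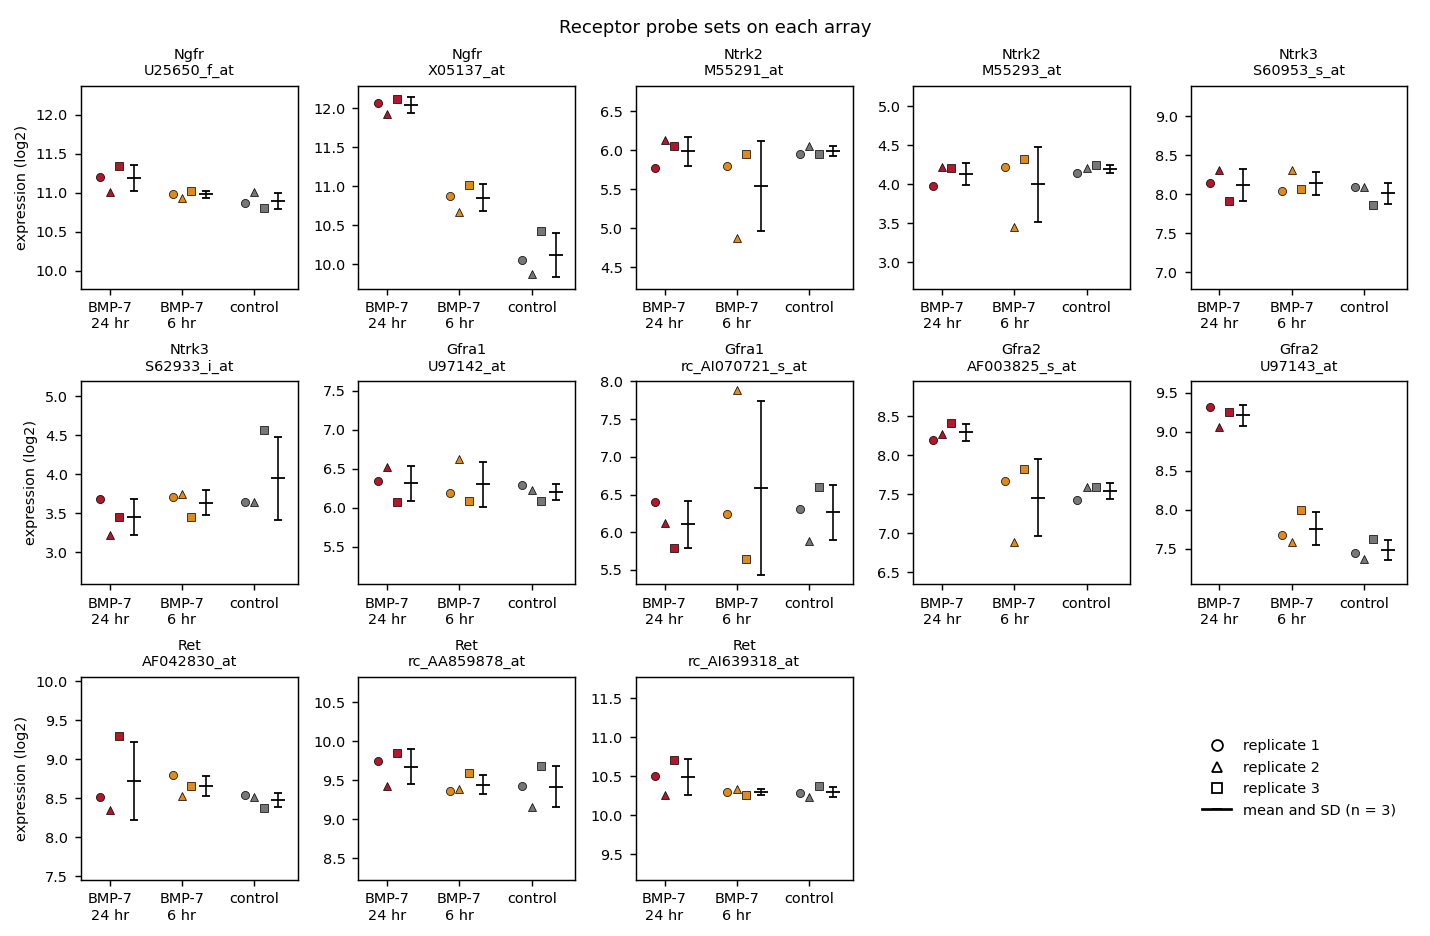
Log2 expression of the 13 receptor probe sets (y axes, each with its own range of at least 2.6 log2 units) on the 3 BMP24h, 3 BMP6h and 3 control arrays (x axes); symbols mark replicates, bars the mean and SD (n = 3). Ngfr X05137_at separates BMP24h and BMP6h from control, and both Gfra2 probe sets separate BMP24h from control. The Ntrk2, Ntrk3, Gfra1 and Ret groups overlap or nearly touch.

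Leaving out 1 array at a time kept the Ngfr X05137_at difference between 1.77 and 2.08 and the Gfra2 U97143_at difference between 1.65 and 1.81. The adjusted p (limma) exceeded 0.05 for both genes without control replicate 1 (0.124), control replicate 2 (0.0550), BMP24h replicate 1 (0.159), BMP24h replicate 3 (0.0974) and BMP24h replicate 2 (0.0781 for Ngfr and 0.0755 for Gfra2). It stayed under 0.05 for both without control replicate 3 (0.00973 for Ngfr and 0.0254 for Gfra2) and without BMP6h replicate 1 (0.0320), 2 (0.00947) or 3 (0.0282).

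Probe sets of 1 gene can be set against each other within an array, where the amount of RNA cancels. For Ngfr, X05137_at minus U25650_f_at was 0.85, 0.91 and 0.78 on BMP24h arrays, −0.10, −0.26 and −0.02 on BMP6h arrays, and −0.80, −1.14 and −0.38 on control arrays. The 3 conditions did not overlap. The mean difference was 0.85 ± 0.06 in BMP24h and −0.77 ± 0.38 in control cultures (SD, n = 3), so that the 2 probe sets diverged by 1.62 log2 units. That these probe sets disagree was known when the genes were chosen, so this is given as a description.

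For Gfra2, U97143_at minus AF003825_s_at was 1.11, 0.77 and 0.84 on BMP24h arrays, against 0.03, −0.23 and 0.02 on control arrays. The mean was 0.91 ± 0.18 in BMP24h and −0.06 ± 0.15 in control cultures, a divergence of 0.97 (two-sided exact permutation p = 0.1, n = 3, adjusted p = 0.3 over 24 comparisons). For Ret, rc_AA859878_at minus rc_AI639318_at averaged −0.82 ± 0.06 in BMP24h and −0.88 ± 0.20 in control cultures (exact permutation p = 0.7, n = 3). The other Ret pairs also gave no divergence at 24 hr. Against AF042830_at, rc_AA859878_at averaged 0.95 ± 0.35 in BMP24h and 0.94 ± 0.35 in control cultures. AF042830_at minus rc_AI639318_at averaged −1.77 ± 0.30 in BMP24h and −1.82 ± 0.15 in control cultures. A high p does not show that 2 probe sets move together. Of the 24 comparisons, 8 reached 0.1, the smallest p that 3 arrays against 3 allow. The 3 for Ngfr repeat the disagreement known beforehand. Another 2 were for Gfra2 and 3 for genes with no call. The genes with no call were Ntrk3 at 24 hr (S62933_i_at minus S60953_s_at, a divergence of −0.60) and Ntrk2 (M55293_at minus M55291_at) at 6 hr (0.24) and between the times (−0.30). Which transcripts the diverging probe sets detect was not tested.

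**Figure D2:**
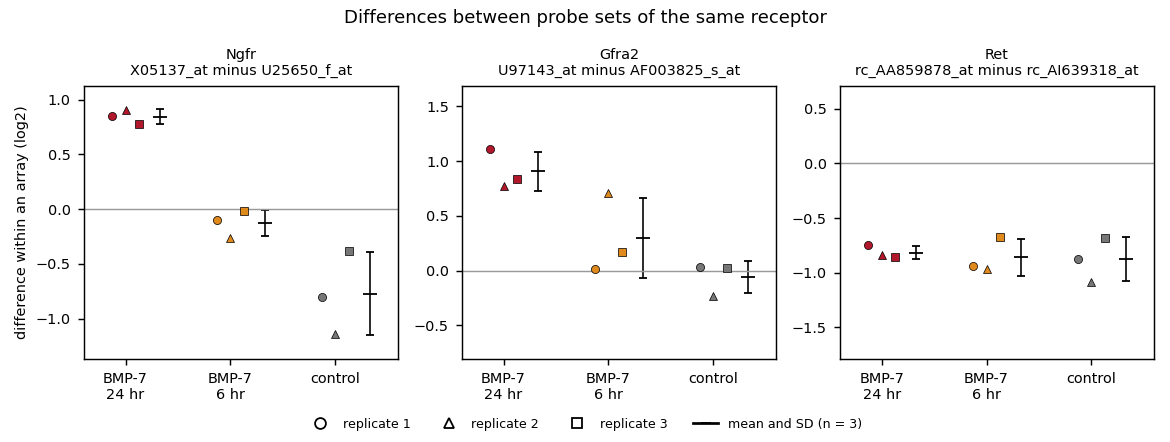
Difference in log2 expression between 2 probe sets of Ngfr, Gfra2 and Ret within each array (y axes) for BMP24h, BMP6h and control arrays (x axes); symbols mark replicates, bars the mean and SD (n = 3). The Ngfr difference is 0.78 to 0.91 in BMP24h and −1.14 to −0.38 in control cultures. The Ret pair shown, rc_AA859878_at minus rc_AI639318_at, lies between −1.08 and −0.67 on all 9 arrays. The Ret pairs with AF042830_at are not shown.

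Ret, the kinase that GFRα co-receptors activate, did not pass either criterion on any of its 3 probe sets. On rc_AI639318_at the BMP24h arrays read 10.50, 10.26 and 10.71, against 10.29, 10.24 and 10.37 on control arrays, and the difference was 0.19 (SE 0.14, −0.14 to 0.52). On rc_AA859878_at the BMP24h arrays read 9.75, 9.42 and 9.85, against 9.42, 9.15 and 9.68 on control arrays, with a difference of 0.25 (SE 0.18, −0.17 to 0.68). On AF042830_at the BMP24h arrays read 8.52, 8.35 and 9.29, against 8.54, 8.52 and 8.37 on control arrays, with a difference of 0.24 (SE 0.24, −0.31 to 0.80). BMP24h replicate 3 was the highest of the 9 arrays on all 3 probe sets. Without it the difference was 0.07 on rc_AI639318_at, 0.16 on rc_AA859878_at and −0.07 on AF042830_at. At 6 hr the difference was 0.00 (−0.33 to 0.33) on rc_AI639318_at, 0.02 (−0.40 to 0.45) on rc_AA859878_at and 0.18 (−0.38 to 0.74) on AF042830_at. Without BMP6h replicate 2 these were −0.02, 0.06 and 0.25. The upper bounds at 24 hr correspond to a fold change of 1.43 on rc_AI639318_at, 1.60 on rc_AA859878_at and 1.75 on AF042830_at.

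Gfra1, the co-receptor that prefers GDNF itself, gave no call on U97142_at, which read 6.34, 6.53 and 6.08 on BMP24h arrays, against 6.29, 6.23 and 6.09 on control arrays. The difference was 0.11 (SE 0.19, −0.32 to 0.55), and at 6 hr it was 0.10, or −0.08 without BMP6h replicate 2. On rc_AI070721_s_at it was −0.16 (SE 0.53, −1.39 to 1.07), and this probe set was the least precise of the 13. Its BMP6h arrays read 6.24, 7.88 and 5.65, so that replicates 2 and 3 were the highest and the lowest of the 9 arrays. The 6 hr difference was 0.33 with all arrays and −0.38 without BMP6h replicate 2. On no other receptor probe set was an array so far (over 1 log2 unit) from the rest of its group. Unlike Gfra2, Gfra1 thus gave no call at either time, and the difference between the 2 co-receptors' responses was not tested. Both Gfra1 probe sets were dim, with group means of 6.10 to 6.59, below the median of all probe sets. Without detection calls, an uncalled difference on them cannot tell an unchanged transcript from one that was not detected.

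The kinases TrkB (Ntrk2), which binds BDNF, and TrkC (Ntrk3), which binds the product of Ntf3, gave no call at either time. Both Ntrk2 probe sets and Ntrk3 S62933_i_at were also below the median of all probe sets. There too an unchanged transcript and an undetected one cannot be told apart. For Ntrk2, M55291_at read 5.77, 6.13 and 6.06 on BMP24h arrays, against 5.95, 6.06 and 5.96 on control arrays, a difference of 0.00 (SE 0.27, −0.64 to 0.63), and M55293_at differed by −0.06 (SE 0.23, −0.60 to 0.47). BMP6h replicate 2 gave the lowest value of the 9 arrays on both, at 4.88 and 3.45. With it the 6 hr differences were −0.45 (−1.08 to 0.19) on M55291_at and −0.20 (−0.74 to 0.33) on M55293_at, and without it −0.09 and 0.10. M55291_at was the 1 receptor probe set whose BMP6h arrays all lay below the control arrays, a pattern shared by 6.96% of all probe sets.

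For Ntrk3, S60953_s_at read 8.14, 8.31 and 7.91 on BMP24h arrays, against 8.09, 8.09 and 7.86 on control arrays, a difference of 0.11 (SE 0.15, −0.25 to 0.46). The other probe set, S62933_i_at, differed by −0.50 (SE 0.27, −1.12 to 0.13). Its control arrays read 3.64, 3.64 and 4.56, so replicate 3 was well above the other 2, and without it the difference was −0.16. At 6 hr the 2 probe sets differed from control by 0.12 (−0.23 to 0.48) and −0.31 (−0.94 to 0.31), and without BMP6h replicate 2 by 0.03 and −0.37.

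**Figure D3:**
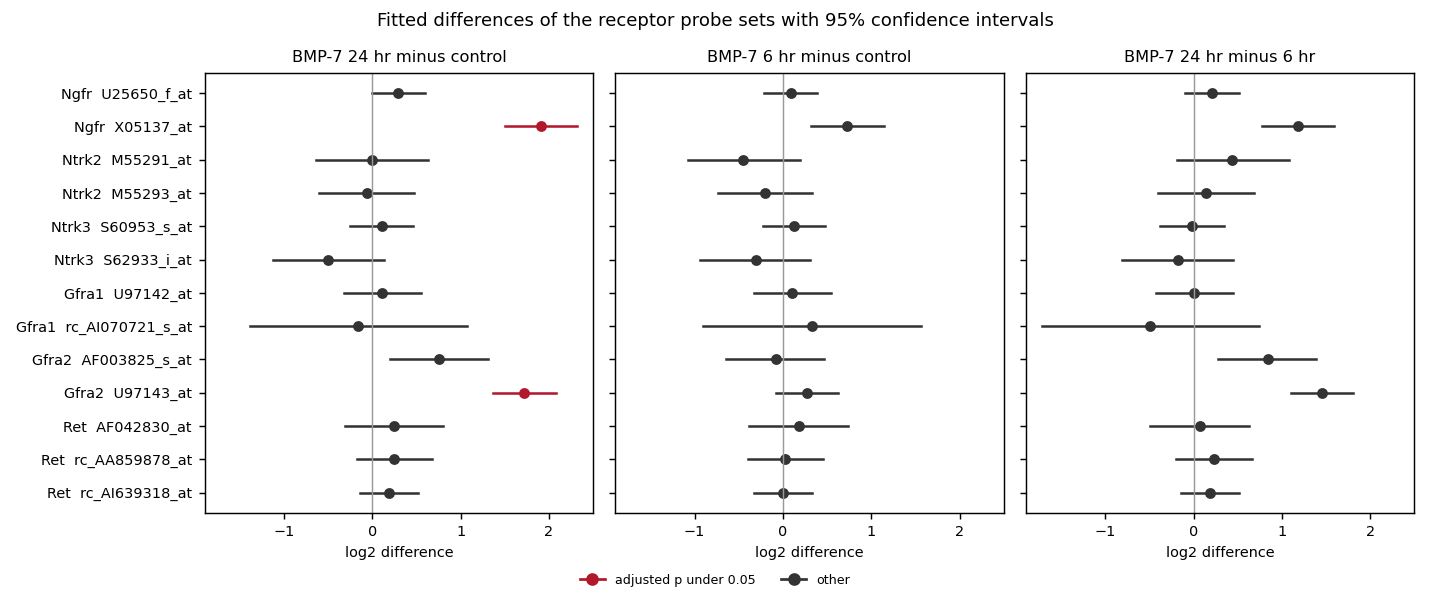
Fitted log2 differences (x axes) of the 13 receptor probe sets (rows) for BMP24h minus control, BMP6h minus control and BMP24h minus BMP6h; points are estimates, lines 95% confidence intervals, and red marks an adjusted p under 0.05. Only Ngfr X05137_at (1.91) and Gfra2 U97143_at (1.72) are red, both at 24 hr, and the interval of Gfra1 rc_AI070721_s_at is the widest.

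The ligands and other receptors of these pathways reported here gave no call after adjustment. Sort1, which encodes the p75 partner sortilin, differed by −0.18 (SE 0.12) on AF023621_at and by 0.23 (SE 0.18) on rc_AI070124_at. Ncam1, an alternative receptor for GDNF, differed by 0.01 (SE 0.14) on X06564_at. Gdf15, a distant relative of the GDNF family whose product signals through a GFRα-like receptor and Ret, differed by −0.39 (SE 0.49).

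Of the neurotrophin genes, Bdnf, Ntf3 and Ntf4 were measured by 11 probe sets, none of which passed either criterion at 24 hr or at 6 hr. On the brightest Bdnf probe set, S76799_at, BMP24h arrays read 8.09, 8.09 and 8.17, against 8.31, 8.25 and 8.26 on control arrays. Gdnf read 6.54, 6.48 and 6.74 on BMP24h arrays, against 6.61, 6.59 and 6.65 on control arrays. Pspn, which encodes persephin, read 7.44, 6.90 and 7.31 on BMP6h arrays, against 7.51, 7.67 and 8.09 on control arrays, and its difference of −0.54 (SE 0.20) met the looser criterion alone (adjusted p = 0.887, limma). Without BMP6h replicate 2, the lowest of the 9 arrays, it was −0.36 (SE 0.18) and did not meet that criterion. At 24 hr it was −0.43 (SE 0.20).

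**Figure D4:**
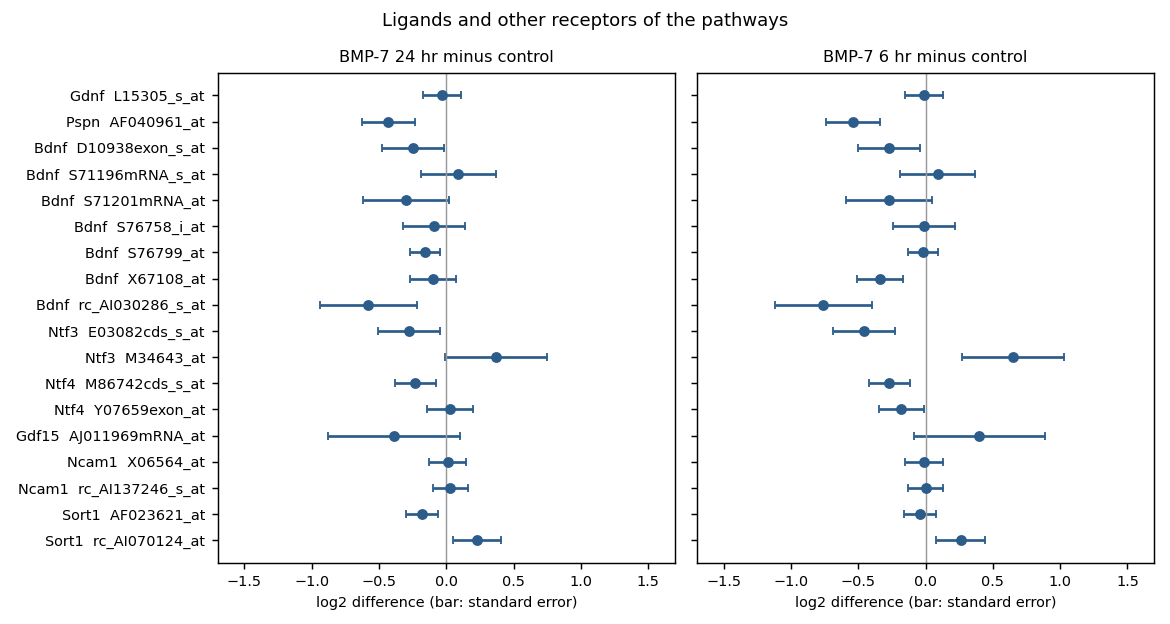
Log2 differences with standard errors (x axes) for BMP24h minus control and BMP6h minus control of the ligand genes Gdnf, Pspn, Bdnf, Ntf3 and Ntf4, the receptors Ncam1 and Sort1, and Gdf15, whose product signals through Ret, with 1 row per probe set. None of these values passed the adjusted test, and 1 of them, Pspn at 6 hr (−0.54), met the looser criterion.

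Downstream genes were taken 1 probe set per gene, the brightest. Among 11 adaptors and effectors of p75, limma called 0, and 0 met the looser criterion at 24 hr or at 6 hr. Among 30 adaptors and effectors of Trk receptors and Ret, 1 met it at 24 hr, where 3.34% of all probe sets did, and was lower. It was Grb10, an adaptor of receptor tyrosine kinases that binds Ret, which averaged 9.15 in BMP24h and 9.68 in control cultures (−0.53, SE 0.11, adjusted p = 0.241, limma). At 6 hr 1 of the 30, the adaptor gene Sh2b2, was higher by that criterion (0.65, SE 0.23, adjusted p = 0.887, limma), beside 1.73% of all probe sets, and by 0.39 (SE 0.15) without BMP6h replicate 2. The median at 24 hr was −0.10 for the p75 list and −0.06 for the Trk and Ret list, beside 0.01 over all probe sets. Grb10 was also lower in BMP24h than in BMP6h by the looser criterion (−0.49, SE 0.11, adjusted p = 0.530, limma). So was another probe set of a gene in the Trk and Ret list, Ptprs L19933_s_at, a receptor tyrosine phosphatase (−0.30, SE 0.10, adjusted p = 0.939, limma). With all 62 probe sets of that list counted, these 2 met the criterion between the times, beside 2.92% of all probe sets. The other Ptprs probe sets did not meet the criterion there. They differed by −0.02 on L19180_g_at, the brightest, 0.07 on L19180_at and −0.39 on the dim L11587_at.

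The probe sets whose pattern was nearest to that of each called receptor were found by centring every probe set on its control mean and taking the mean absolute difference from the receptor over the 9 arrays, with member genes left out. For Ngfr X05137_at the nearest genes were Cxcr4, a chemokine receptor (0.27), Jag1, a ligand of Notch (0.28), Hpcal1, a neuronal calcium sensor (0.32), Tmem64 (0.32) and Hsd11b2, a steroid dehydrogenase (0.36). For Gfra2 U97143_at they were Hsd11b2 (0.18), Hpcal1 (0.19), Cxcr4 (0.20), the secretin receptor gene Sctr (0.27) and Jag1 (0.27). Ngfr X05137_at and Gfra2 U97143_at themselves lay 0.26 apart on this measure. The other probe sets of these genes lay further away. Gfra2 AF003825_s_at was 0.73 from Ngfr X05137_at, and Ngfr U25650_f_at was 0.59 from Gfra2 U97143_at. Cxcr4, Jag1, Hpcal1 and Hsd11b2 were among the nearest of both. Their 6 hr differences from control were 0.75 (rc_AA945737_at, the probe set near Ngfr) and 0.51 (U90610_g_at, near Gfra2) for Cxcr4, 0.73 for Jag1, 0.45 for Hpcal1 and 0.31 for Hsd11b2.

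**Figure D5:**
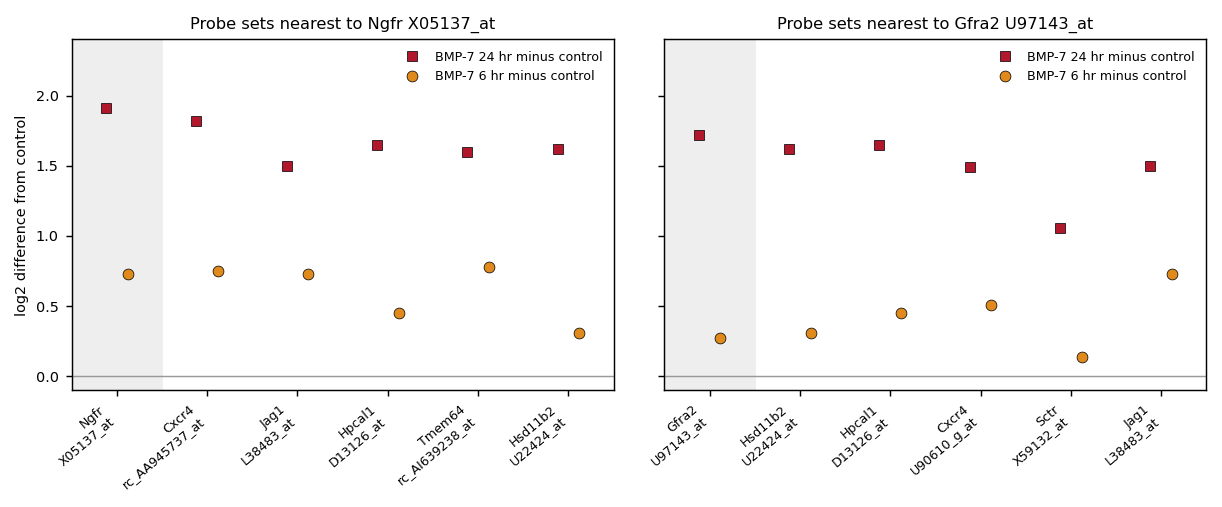
Log2 difference from control (y axis) after 24 hr and after 6 hr of BMP-7 for Ngfr X05137_at and Gfra2 U97143_at (shaded) and the 5 genes nearest to each in mean absolute difference over 9 arrays (x axes). Values at 24 hr run from 1.06 (Sctr) to 1.91 (Ngfr), and those at 6 hr from 0.14 (Sctr) to 0.78 (Tmem64).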

How the data were processed

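RNA from 3 BMP24h, 3 BMP6h and 3 control cultures was hybridized to Affymetrix Rat Genome U34A arrays. The deposited log2 values were made by the authors with RMA in Partek, which corrects background, quantile-normalizes and summarizes probes, after which the difference between processing batches was removed. In the table no probe set had batch means further apart than 6.67e-05, so that a batch term takes 1 degree of freedom and shifts no estimate. Raw intensities and detection calls were not used here, and the depth of an array cannot be given as counts: the number of arrays limits the precision.

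Of 8799 probe sets, 59 hybridization controls were left out. The platform annotation named 1 gene for 7006 probe sets, several for 308 and none for 1426. Some genes of these pathways are not reported here. limma 3.58.1 in R 4.3.3 fitted condition and batch (5 residual degrees of freedom) for all 8740, with Benjamini-Hochberg adjustment. The study's methods used a two-way ANOVA, which was run as an alternative. The fitting code was run on simulated arrays with independent noise of 1 common SD (0.233) for all probe sets. That simulation had no deviating array and no removed batch difference, so it does not check the calls made here. Exact permutation tests used scipy 1.17.1. All probe sets of the 6 receptors are given. Of each pathway list, all ligands and receptors, and up to 6 other genes past either criterion, largest difference first, are named. Members and lists were chosen with earlier results of these data known. Alternatives were the ANOVA, no batch term, a replicate block, each batch alone, array weights, a trend of the prior variance with intensity, centring on each array's median, a second quantile normalization, a fit of the compared groups without the third, removal of dim probe sets and each array left out in turn.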

Additional observations from a re-analysis of the deposited data

How the results depend on the processing

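The 24 hr differences of Ngfr X05137_at and Gfra2 U97143_at kept their direction under every alternative run. They lost the adjusted call under ordinary ANOVA (1.91 and 1.72, adjusted p = 0.134 for both) and in batch 2 alone (1.87 and 1.66, adjusted p = 0.568 for both by limma), where 0 receptor probe sets were called at 24 hr. The Gfra2 value was 1.86 in batch 1 alone. With 1 array left out, Ngfr ranged from 1.77 to 2.08, Gfra2 from 1.65 to 1.81 and Gfra2 AF003825_s_at from 0.67 to 0.83. The number of receptor probe sets called then ranged from 0 to 3 at 24 hr and from 0 to 2 in the test over 3 conditions. That test called 0 under ANOVA and in batch 2 alone. By the looser criterion, 3 receptor probe sets passed at 24 hr in the main fit. It was 4 under ANOVA, without a batch term, after a second quantile normalization, with an intensity trend and after removal of dim probe sets. That removal kept 8 of the 13. The count was 5 with array weights, 2 in batch 2 alone and 3 to 5 with 1 array left out. Over the whole array, the 19 calls at 24 hr became 0 under ANOVA and in batch 2 alone, 10 with the compared groups alone, 38 without a batch term, 42 after removal of dim probe sets, 280 with array weights and 42 with an intensity trend. At 6 hr, array weights gave 1 call, Ngfr X05137_at. The weights came from a gene-by-gene method, because the method tried first did not converge. In each condition they were largest for replicate 1, its only array in batch 1 (5.76 in BMP24h, 2.76 in BMP6h, 2.93 in control). Whether the earlier removal of the batch difference raised these weights, and with them the calls, was not tested. Between BMP24h and BMP6h, where the report has 0 calls, there were 3 with array weights, 2 with an intensity trend, 2 after removal of dim probe sets and 1 without a batch term. A replicate block fitted instead of the batch term also gave 2, Ngfr X05137_at (adjusted p = 0.0472, limma) and Gfra2 U97143_at (adjusted p = 0.0317), and the block changed no other receptor call. Each dissection supplied 1 sample of every condition, but neither the labels nor the methods say that equal numbers mark a dissection. Within batch 2, where removal of the batch difference does not bear on the check, deviations of same-numbered arrays correlated at 0.40 between BMP24h and BMP6h, 0.0169 between BMP24h and control and 0.0482 between BMP6h and control, so the block was kept as an alternative.

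Uncalled differences of up to 0.50 in size changed sign in places, and none of these values was called. In batch 1 alone (1 array per condition, no test), differences at 24 hr were 0.05 for Ntrk3 S62933_i_at, 0.09 for Gfra1 rc_AI070721_s_at and −0.02 for Ret AF042830_at. Those at 6 hr were 0.08 for Ntrk2 M55293_at, −0.05 and 0.07 for Ntrk3 S60953_s_at and S62933_i_at, −0.10 and −0.07 for Gfra1 U97142_at and rc_AI070721_s_at, 0.24 for Gfra2 AF003825_s_at and −0.06 for Ret rc_AA859878_at. Between the times they were −0.03 and −0.25 for Ntrk2 M55291_at and M55293_at, 0.10 for Ntrk3 S60953_s_at, 0.16 for Gfra1 rc_AI070721_s_at and −0.26 for Ret AF042830_at. Array weights, lowest (0.093) for BMP6h replicate 2, gave 0.04 for Gfra1 rc_AI070721_s_at at 24 hr. At 6 hr they gave 0.07 for Ntrk2 M55293_at, −0.02 for Ntrk3 S60953_s_at, −0.10 and −0.13 for Gfra1 U97142_at and rc_AI070721_s_at and 0.21 for Gfra2 AF003825_s_at. Between the times they gave −0.21 for Ntrk2 M55293_at, 0.06 for Ntrk3 S60953_s_at, 0.17 for Gfra1 rc_AI070721_s_at and −0.12 for Ret AF042830_at. Batch 2 alone gave 0.09 for Ntrk2 M55291_at at 24 hr and −0.06 for Gfra1 U97142_at between the times, and median centring gave −0.01 for Ret rc_AI639318_at at 6 hr.

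With 1 array left out, the 24 hr differences ranged from −0.08 to 0.16 for Ntrk2 M55291_at, −0.11 to 0.06 for Ntrk2 M55293_at, 0.00 to 0.24 for Gfra1 U97142_at, −0.38 to 0.02 for Gfra1 rc_AI070721_s_at and −0.07 to 0.45 for Ret AF042830_at. The 6 hr differences ranged from −0.38 to 0.10 for Ntrk2 M55293_at, −0.55 to 0.02 for Ntrk3 S62933_i_at, −0.08 to 0.22 for Gfra1 U97142_at, −0.38 to 0.84 for Gfra1 rc_AI070721_s_at, −0.28 to 0.23 for Gfra2 AF003825_s_at, −0.12 to 0.17 for Ret rc_AA859878_at and −0.03 to 0.04 for Ret rc_AI639318_at. Between the times they ranged from −0.16 to 0.32 for Ntrk2 M55293_at, −0.12 to 0.10 for Ntrk3 S60953_s_at, −0.11 to 0.19 for Gfra1 U97142_at, −1.0 to 0.22 for Gfra1 rc_AI070721_s_at and −0.24 to 0.27 for Ret AF042830_at. Batch 2 alone holds 6 arrays, which limits what it can call. The cause of the other changes was not tested.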

Other observations

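Several dim probe sets of the ligand genes had their most extreme value on 1 array. Control replicate 3 read 5.18 on Bdnf rc_AI030286_s_at, where the other control arrays read 4.01 and 4.07 and the BMP24h arrays 3.70 to 3.96. On the 2 Ntf3 probe sets the same array was the highest of the 9 on E03082cds_s_at (5.54) and the lowest on M34643_at (4.76), where the other control arrays read 5.85 and 5.85. It was also the highest on Pspn (8.09) and on Ntrk3 S62933_i_at (4.56). BMP6h replicate 2 was the lowest of the 9 on Bdnf rc_AI030286_s_at (3.12) and the highest on Ntf3 M34643_at (6.79), Gdf15 (7.95) and Gfra1 rc_AI070721_s_at (7.88).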
